A study of Mus musculus with 12 samples.

Results

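Levels of gene expression were described in unstimulated mouse peritoneal macrophages, using the 4 arrays titled as untreated wild-type control out of the 12 arrays of the series. The members were chosen by that title alone, not by any measured value, and the other 8 arrays (macrophages given LPS and IFNg, with or without the plant compound emodin) entered nothing below. The cells came from C57BL/6 mice of 8 weeks with no engineered allele named in the labels. Cells of the peritoneal cavity were allowed to attach, those still floating after 2 h were rinsed away, and the attached cells were kept overnight in DMEM medium without serum and then with vehicle for 20 h. The starting amount was 200 ng of RNA per array, labelled with Cy3. The labels give replicates 1 and 2 as female and replicates 3 and 4 as male, and the design text calls the 4 samples biological replicates without tying any of them to 1 animal. Adherence is the only selection named, so the culture is macrophage-rich rather than sorted, and the overnight culture on plastic means that these are not levels of freshly isolated cells. In such bulk samples, fewer cells of a type and less RNA per cell cannot be told apart.

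Macrophages of the peritoneal cavity are resident phagocytes that take up dead cells and microbes, degrade them in lysosomes and recycle their lipid and iron. Most of them in a healthy mouse are large peritoneal macrophages, which depend on the transcription factor GATA6, and a smaller population derives from blood monocytes. Their resting state is set by lineage transcription factors such as PU.1 and by growth factors of the CSF family, and their receptors for microbial products, opsonins and cytokines decide what they can respond to.

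The level of a gene was the log2 of its background-subtracted probe signal minus the 75th percentile of the same array, so that a level of 0 is a signal equal to that of the probe at the 75th percentile. An array measures the brightness of probes, which also depends on the probe's own sequence, so the order of levels given here is an order of probe signals. Among 4127 detected genes with several probes, the probes of 1 gene lay a median of 2.79 log2 units apart (quartiles 1.24 and 4.51), against a median SD of 0.154 between the 4 arrays. Small gaps between genes therefore gave no order, while the same gene could be compared between arrays far more closely. A probe was called detected when the scanner software flagged it as well above background, and a gene was called detected on all 4 arrays when 1 of its probes was. Each level is that of the gene's probe with the highest mean, and lower probes are named below for some genes only.

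The arrays were alike in depth of signal, with 75th percentiles of 632.9 to 809.6, between 49.7% and 50.8% of probes well above background, no saturated spot among the gene probes and Pearson correlations of 0.9933 to 0.9974 over the 25762 probes detected on all 4 arrays. The labelled sex did not match the data on replicates 3 and 4. Xist, the RNA that silences one X chromosome in female cells, measured 0.01, -0.01, 0.19 and 0.44 on replicates 1 to 4 and was detected on all of them. The Y-linked gene Ddx3y measured -6.46, -6.58, -6.36 and -6.55 and was detected on none, as were the other 7 Y-linked genes measured. Xist was higher on the arrays labelled male than on those labelled female. With only the 2 arrays labelled female, the same 25 genes had the highest levels.

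Of 20871 genes with a named probe, 12610 (60.4%) were detected on all 4 arrays, 6680 (32.0%) on none and 1581 on some. The counts of list members below are to be read beside these shares. Olfactory and vomeronasal receptors, which are not known to be made in macrophages, served as a reference for signal without expression. Of 1320 of these receptors, 94 (7.12%) were detected on all 4 arrays and 1101 (83.4%) on none, with a median level of -6.32 and a 95th percentile of -3.31. The highest was Olfr544 at 3.54, and 10 of them exceeded a level of 0. The 94 detected on all 4 arrays had a median level of -2.88, and 15 receptors lay between -2 and 0. Detection below a level of 0 was therefore shared with genes of this reference family. Genes near or below a level of about -3, close to its 95th percentile, are described below as near background. A level between -3 and 0 does not by itself set a gene apart from this family.

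**Figure D1:**
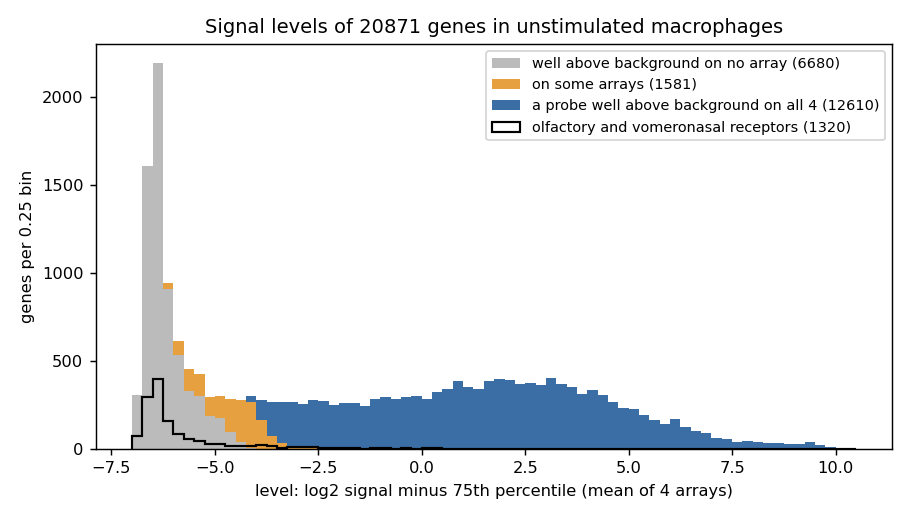
Histogram of the mean level of 20871 genes over the 4 control arrays (x axis, log2 signal minus the 75th percentile; y axis, genes per bin of 0.25), with stacked colours for genes detected on all 4 arrays, on some or on none, and a black outline for olfactory and vomeronasal receptors. The 6680 genes detected on no array form a peak near -6.3, where the median of the 1320 sensory receptors (-6.32) also lies, and the 12610 genes detected on all 4 arrays spread from about -4 to 10.

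Signal was concentrated in few genes. The 25 highest genes held between 7.3% and 8.0% of the summed signal of all named genes, the 100 highest between 22.8% and 24.3%, and the 1000 highest between 68.9% and 70.4%, on every array. Above a level of 8 there were 221 genes. Most of the 25 highest fell into a few kinds, namely translation (Tpt1, Fau, Rpl35, Rpl10, Rps14 and Rpl41), lysosomal proteases (Ctsd, Ctsl and Ctsb), ferritin (Fth1 and Ftl1), the actin cytoskeleton (Actb and Capg) and secreted or surface proteins of phagocytes (Apoe, Mfge8, Lgals3 and Gpnmb).

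Tpt1, the translationally controlled tumour protein, measured 10.04, 10.10, 10.33 and 10.19 on replicates 1 to 4 and had the highest mean. Fth1, the heavy chain of the iron store ferritin, measured 9.90, 10.02, 10.05 and 9.89, and Apoe, which carries cholesterol out of the cell, 9.54, 9.79, 9.72 and 9.69. The arrays hardly differed for any of these. Tpt1 lay above Fth1 on every array, but by far less than the median spread between probes of 1 gene, so that their order is not settled. Mfge8, a bridge between dying cells and phagocytes, reached a mean of 9.80, Gpnmb, a membrane glycoprotein of lysosome-rich macrophages, 9.65, and Cyba, a subunit of the phagocyte NADPH oxidase, 9.63. Others of the 25 were the glycolytic enzyme gene Aldoa (9.84), the exosome subunit gene Exosc2 (9.79), the immune receptor gene Milr1 (9.74), Glrx2 (9.72), Kctd14 (9.72) and 2610028H24Rik (9.63). For several of these the place at the top rests on 1 probe of a pair or more. The lowest probe of Milr1 was at 4.29, that of Glrx2 at -2.06, that of Kctd14 at -6.27 and that of 2610028H24Rik at -1.15, and 15 of the 25 genes had a single probe. With each gene taken at its lowest probe, 17 of the 25 stayed among the 25 highest, but the levels of the 15 single-probe genes could not change. Of the 10 genes with several probes, only Ftl1 and Tpt1 stayed.

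Lysosomal genes had the highest median of the gene lists after ribosomal proteins. Of 36 lysosomal genes measured, 35 were detected on all 4 arrays, beside 60.4% of all genes, with a median level of 7.74, and 27 lay among the highest 5 percent of genes. Ctsd, an aspartic protease that matures in the acid lysosome, measured 9.86, 9.87, 10.16 and 9.72 on replicates 1 to 4. Ctsl and Ctsb, cysteine proteases, averaged 9.72 and 9.67, with SDs of 0.10 and 0.08. Lamp1, a protein of the lysosomal membrane, stood at 9.51, the protective protein Ctsa at 9.47 and the elastolytic protease Ctss at 9.31. The other probe of Ctsa was at 2.45. Subunits of the proton pump that acidifies the lysosome spread from Atp6v0c at 8.46 to Atp6v1b2 at 4.14. Below a level of 0 were the proteases Ctsf, Ctso, Ctse and Ctsw, with Ctsw (-3.85), a protease of cytotoxic lymphocytes, detected on 3 arrays.

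Promoters of lysosomal genes are known to carry E-box elements read by the factors TFEB, TFE3 and MITF, whose own genes were detected on all 4 arrays here (Tfeb 2.17, Tfe3 5.12 and Mitf 5.40). The E-box letters CACGTG, which read the same on both strands, were searched in the 250 bases upstream of RefSeq gene starts (assembly GRCm38.p6), where 25 of the lysosomal genes matched 30 windows. They stood in 10 of the 30 windows (33.3%), beside 6.0% of all 32851 windows and 6.9% of windows of measured genes. The share was 8.2% for windows of genes detected on all 4 arrays and 4.5% for those detected on none. Among windows of the 500 highest genes it was 10.5%, a closer comparison because most lysosomal genes had high levels. A match in a window is a description and not a bound site. The windows of Ctsd, Ctsa and Mcoln1, a lysosomal calcium channel with a level of 6.01, are printed 5′ to 3′ on the gene's strand because they hold the E-box letters, which are in capitals. Ctsd lies on the minus strand at chr7:142387828-142388077, Ctsa on the plus strand at chr2:164833523-164833772 and Mcoln1 on the plus strand at chr8:3500269-3500518.
Ctsd: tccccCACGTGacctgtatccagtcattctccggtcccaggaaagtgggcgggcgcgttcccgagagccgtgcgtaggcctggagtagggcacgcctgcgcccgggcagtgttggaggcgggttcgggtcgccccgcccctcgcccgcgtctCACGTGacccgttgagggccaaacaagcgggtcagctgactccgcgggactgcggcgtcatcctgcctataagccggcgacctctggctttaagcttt
Ctsa: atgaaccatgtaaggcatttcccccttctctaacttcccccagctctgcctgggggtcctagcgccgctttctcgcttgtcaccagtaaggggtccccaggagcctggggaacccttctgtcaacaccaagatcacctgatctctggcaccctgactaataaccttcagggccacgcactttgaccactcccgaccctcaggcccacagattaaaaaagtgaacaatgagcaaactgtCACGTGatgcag
Mcoln1: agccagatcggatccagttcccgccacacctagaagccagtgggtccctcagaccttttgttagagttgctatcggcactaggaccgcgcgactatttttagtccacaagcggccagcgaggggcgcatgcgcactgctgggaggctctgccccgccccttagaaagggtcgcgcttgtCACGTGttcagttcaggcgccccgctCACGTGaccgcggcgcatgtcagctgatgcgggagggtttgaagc
The Ctsd and Mcoln1 windows each hold 2 copies of the E-box letters and the Ctsa window 1 copy. For Ctsa this is 1 of 2 windows in the table.

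Genes of lipid and iron handling were similarly high. Of 19 measured, 18 were detected on all 4 arrays with a median over the 19 of 6.78. The fatty acid binding proteins Fabp5 and Fabp4 stood at 9.33 and 7.50, the lipid droplet coat protein Plin2 at 8.57 and lipoprotein lipase Lpl at 8.10. Cd36, a receptor for oxidised lipoprotein, measured 7.07, 6.91, 6.61 and 6.53. It was highest on replicates 1 and 2. The iron exporter Slc40a1 was lower at -1.18, and the liver hormone Hamp, which blocks that exporter, was detected on no array. The 31 ribosomal protein genes measured lay between 6.95 and 9.84 and held between 5.2% and 5.7% of the signal, against 3.8% to 4.0% for the lysosomal genes.

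Macrophage identity was plain in the markers. All 14 measured genes of the macrophage core were detected on all 4 arrays, with a median of 4.92 beside medians between -6.06 and -0.76 for the lists of other cell types, and Cd68 had no matched probe. Tyrobp, an adaptor that carries signals of activating receptors, measured 9.46, 9.64, 9.51 and 9.18. Lyz2, macrophage lysozyme, measured 8.42, 8.40, 8.30 and 8.12, and Csf1r, the receptor for the survival factor M-CSF, 7.74, 7.80, 7.97 and 8.19. No array stood apart for these genes. The other probes of Csf1r were at 3.49 and 1.75. Adgre1, a classical surface antigen of macrophages, was next to Cd14 in level, at 4.93, 4.75, 4.74 and 4.88 against a mean of 5.01 for Cd14. The chemokine receptor Cx3cr1, a marker of monocyte-derived cells, was the exception at -3.48, near background. The sequence of Lyz2 is close to that of Lyz1 (7.53), and their probes may share signal.

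Genes of large peritoneal macrophages were detected but ran over a wide range. Of 28 measured, 27 were detected on all 4 arrays, with a median of 0.99, and the lipoxygenase gene Alox15 was detected on none. The highest were the acute phase protein Saa3 (8.61, 8.48, 8.30 and 7.73), the tetraspanin Cd9 (mean 7.96) and Lyz1 (mean 7.53), followed by Cd93 (7.47) and clotting factor gene F10 (6.26). Gata6 was far lower, at -0.29, -0.55, 0.35 and -1.03, highest on replicate 3 and lowest on replicate 4. Timd4, a receptor for phosphatidylserine on dying cells that marks long-lived resident macrophages, was near background at -3.58, -3.80, -3.68 and -3.42. Between these ends lay the phagocytic receptor Marco (4.18), the complement receptor Vsig4 (2.55), the adhesion molecule Icam2 (2.88) and the lubricant Prg4 (1.14). The other probe of Prg4 was at -6.01. The retinoic acid receptor gene Rarb, which works upstream of Gata6 in these cells, was at -1.23.

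Markers of small peritoneal macrophages and monocytes were present as well. Of 18 measured, 16 were detected on all 4 arrays with a median over the 18 of -0.33. MHC class II genes were among the highest of the list, with the beta chain H2-Ab1 at 5.50, 5.72, 4.61 and 5.50 and the invariant chain Cd74 at 5.35, 5.62, 4.49 and 5.54, so that replicate 3 was the lowest for both. Their transactivator Ciita stood at -3.95 and was detected on 3 arrays. The monocyte receptor Ccr2 was near background at -3.04.

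The design text names neutrophils of the blood rather than macrophages, so neutrophil markers were set beside those of the other cells that could adhere. Of 15 neutrophil markers measured, 8 were detected on all 4 arrays and 3 on none, with a median of -3.23. For this list and the next ones, the shares over all genes are 60.4% on all 4 arrays and 32.0% on none. Csf3r, the G-CSF receptor, was the highest at 6.43, and the protease Elane (4.31) and the calcium-binding S100a8 (3.41) were also detected. Genes of granule proteins went both ways, with Lcn2 (1.42), Mmp8 (1.01) and Ltf (-1.04) detected on all 4 arrays and Camp (-3.17), Mpo (-4.53) and Ngp (-6.67) near or at background. S100a9 (-3.28), Retnlg (-3.23) and the chemokine receptor Cxcr2 (-3.85) were near background as well. B-cell markers had a median of -3.65, and 6 of 11 were detected on all 4 arrays. The lectin Cd22 stood at 2.11, Cd79b at 0.22 and Ms4a1 at -1.83, while Cd79a (-4.20), the partner of Cd79b in the B-cell receptor, was near background. Of 16 T and NK cell markers, 7 were detected on all 4 arrays and 7 on none, and Cd3d, Cd3g, Cd8a and Ncr1 were detected on none. Il7r (6.33), Cd4 (2.33, with its other probe at -4.41) and Cd3e (1.85) led the detected members. Dendritic cell markers split in the same way, with Siglech at 7.12 and Itgax at 6.24 but Flt3 at -5.19, Zbtb46 at -3.73 and Xcr1 detected on no array. The other probe of Siglech was at -6.46.

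Fibroblast and mesothelial markers had the largest detected share of the lists for other cells. All 16 were measured, 14 were detected on all 4 arrays and none was undetected on every array, with a median of -0.76. Dcn, a proteoglycan of connective tissue, measured 4.70, 4.86, 5.61 and 3.22, and the collagen gene Col1a2 3.25, 3.02, 4.22 and 2.43. The mesothelial factor Wt1 measured -0.10, -0.21, 0.85 and -1.14. All of these were highest on replicate 3 and lowest on replicate 4, as was Gata6, which mesothelial cells also make. The mean over the 14 detected genes was -0.17, -0.19, 0.46 and -1.26 on replicates 1 to 4, and the part of these cells in the Gata6 level was not tested. Red cell, platelet and endothelial markers were mostly absent, with 8 of 14 detected on no array. Kdr, a receptor for VEGF, still stood at 4.72 by 1 probe and at 0.39 by the other.

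**Figure D2:**
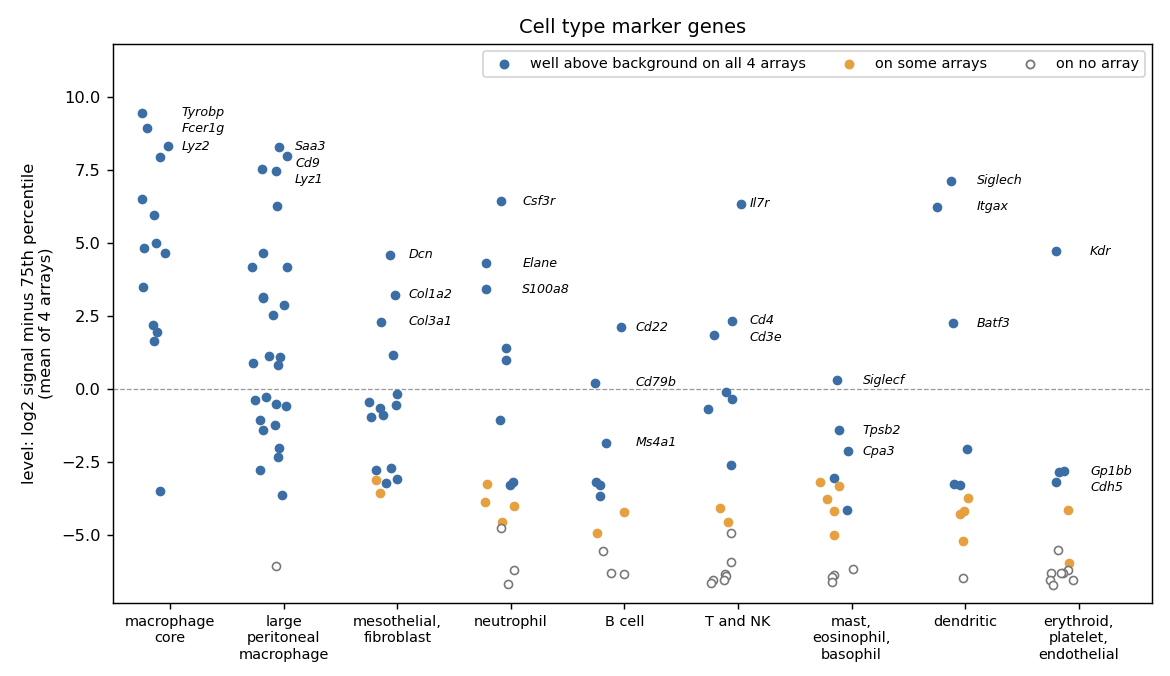
Mean level over the 4 control arrays (y axis, log2 signal minus the 75th percentile) of each marker gene, by list (x axis). Filled blue points were detected on all 4 arrays, orange on some and open points on none, the dashed line marks a level of 0, and the 3 highest genes of each list are named where they lie. All 14 macrophage core genes are blue with a median of 4.92, while 8 of the 14 red cell, platelet and endothelial markers are open.

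Receptors differed by class in how many were detected and how high, beside 60.4% of all genes on all 4 arrays and 32.0% on none. Fc and complement receptors had the highest median of the receptor classes, 3.76, with 16 of 17 detected on all 4 arrays. Fcer1g, the signalling chain shared by activating Fc receptors, measured 8.88, 8.98, 8.95 and 8.93. The receptors of lower affinity Fcgr3 (5.58), Fcgr2b (4.57) and Fcgr4 (4.00) stood above the high-affinity Fcgr1 (1.63) in signal. For Fcgr4 the gap is below the median spread between probes of 1 gene (2.79). For complement, the anaphylatoxin receptors C3ar1 and C5ar1 were at 3.76 and 1.82, while the mast cell IgE receptor chain Fcer1a was detected on 1 array.

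Among Toll-like receptors, 9 of 12 were detected on all 4 arrays. Tlr13, which senses bacterial ribosomal RNA, measured 6.54, 6.47, 6.53 and 6.56 and was the highest by about 3 log2 units. A gap of that size is still below the upper quartile of the spread between probes of 1 gene (4.51). A second tier held Tlr2 (3.33), Tlr7 (3.25), Tlr4 (2.52), Tlr6 (2.44), Tlr9 (2.34) and Tlr1 (2.03). None of these differed from another beyond the median spread between probes (2.79). Tlr4, the receptor for LPS, measured 2.53, 2.62, 2.47 and 2.46, with no array apart. Tlr3 (-2.52) was low, Tlr8 (-3.12), Tlr12 (-4.10) and Tlr11 (-5.05) were near background, and Tlr5, the flagellin receptor, was detected on none.

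The machinery around these receptors was nearly complete, with 26 of 27 genes for LPS and cytosolic sensing detected on all 4 arrays and none undetected. The co-receptors of LPS stood above Tlr4 in signal, with Cd14 at 5.01 and Ly96, which encodes MD-2, at 3.79. Both gaps are below the median spread between probes of 1 gene (2.79). The adaptor Myd88 was at 3.77. Naip5, a sensor of flagellin inside the cell, was the highest at 6.80, ahead of Unc93b1 (6.22), which escorts nucleic acid sensors to endosomes, and the inflammasome adaptor Pycard (5.78). Casp1, the inflammasome protease, was at 5.57. Nlrp3, whose product forms an inflammasome after priming, was the lowest at -4.08 and was detected on 2 arrays. Naip genes are near-identical copies, so Naip2, Naip5 and Naip6 may share signal.

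Cytokine receptors were led by those for the CSF family. Csf2ra, the alpha chain of the GM-CSF receptor, measured 8.04, 7.97, 8.03 and 8.24, and Csf2rb, its beta chain, 7.56, 7.38, 7.53 and 7.69, close to Csf1r. Probes of Csf2rb and its copy Csf2rb2 (7.51) may share signal. Lower probes stood at 3.60 for Csf2rb, 5.25 for Csf2rb2 and 3.49 and 1.75 for Csf1r. Except for Csf2ra with its single probe, the place of these genes rests on the highest probe of each. The IFNg receptor chains stood at 4.78 for Ifngr1 (4.76, 4.84, 4.74 and 4.78) and 5.62 for Ifngr2, and those of the type I interferon receptor at 3.32 for Ifnar1 and 4.87 for Ifnar2. The TNF receptors Tnfrsf1a (5.07) and Tnfrsf1b (4.03) were both detected. Receptors for the type 2 cytokines were lower, with Il4ra at -0.32 and Il13ra1 at -0.80, and Il2ra, Il2rb, Il18r1 and Il18rap, which belong to lymphocyte responses, were detected on no array. In all, 32 of 39 were detected on all 4 arrays.

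Chemokine receptors had the lowest median of the receptor classes, -3.52, with 13 of 24 detected on all 4 arrays (54.2%) and 7 on none (29.2%), near the shares of 60.4% and 32.0% over all genes. Ccrl2, an atypical receptor, measured 3.11, 3.12, 3.23 and 2.98, and Cxcr4, the receptor of the homing chemokine CXCL12, 2.09, 2.40, 2.38 and 2.10. The arrays hardly differed for either gene, and Ccr1 was lower at -1.55. Receptors known from lymphocytes fell on both sides, with Cxcr3 (-1.67) and Ccr7 (-2.05) low but detected on all 4 arrays. Ccr9 (-3.34), Cxcr6 (-3.40) and Ccr8 (-3.56) were also detected on all 4, near background. The lymphocyte receptors Ccr4, Ccr6 and Cxcr5 and the scavenging receptors Ackr1, Ackr3 and Ackr4 were detected on no array.

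Uptake and adhesion receptors held some of the highest levels. Trem2, a lipid-sensing receptor that signals through the Tyrobp product, measured 9.00, 9.26, 9.04 and 9.10, and the lectin Clec4d 8.06, 8.28, 8.18 and 7.84. The endocytic receptor Lrp1 followed at 5.37 and the mannose receptor Mrc1 at 4.17. Mertk, an efferocytosis kinase, was higher in signal (1.94) than its relatives Axl (0.82) and Tyro3 (-2.53). The gap to Axl is below the median spread between probes of 1 gene. The haemoglobin receptor Cd163 was detected on no array. Of the integrins, the leukocyte beta chain Itgb2 measured 7.31, 7.35, 7.23 and 7.18, and its partners Itgax and Itgam stood at 6.24 and 4.64. Itgal, the lymphocyte partner, was lower at -0.65. The other probes of Itgam were at 1.89 and -1.89. Integrins better known from other tissues fell on both sides. Itgb6, Itga8, Itga11 and the platelet chain Itga2b were detected on no array. The platelet partner Itgb3 (3.21), Itgb4 (-2.56) and Itga7 (-2.77) were detected on all 4, as was Itga1 near background (-4.02).

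Receptors for small ligands were led by those for nucleotides. P2rx4, an ATP-gated channel listed with them, measured 8.24, 8.28, 8.31 and 8.16, and the UDP receptor P2ry6 4.58, 4.49, 4.57 and 4.51. The ATP-gated channel P2rx7, whose opening is known to trigger the inflammasome, was at 3.92. Lipid receptors came next, with the sphingosine-1-phosphate receptor S1pr2 at 4.27, the prostacyclin receptor Ptgir at 4.22 and the platelet-activating factor receptor Ptafr at 4.04. Of 48 measured, 34 were detected on all 4 arrays and 10 on none, the latter including the cannabinoid receptor Cnr1 and the succinate receptor Sucnr1, while Cnr2 stood at 2.40. The formyl peptide receptors Fpr1 (-2.24) and Fpr2 (-2.86) were low.

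**Figure D3:**
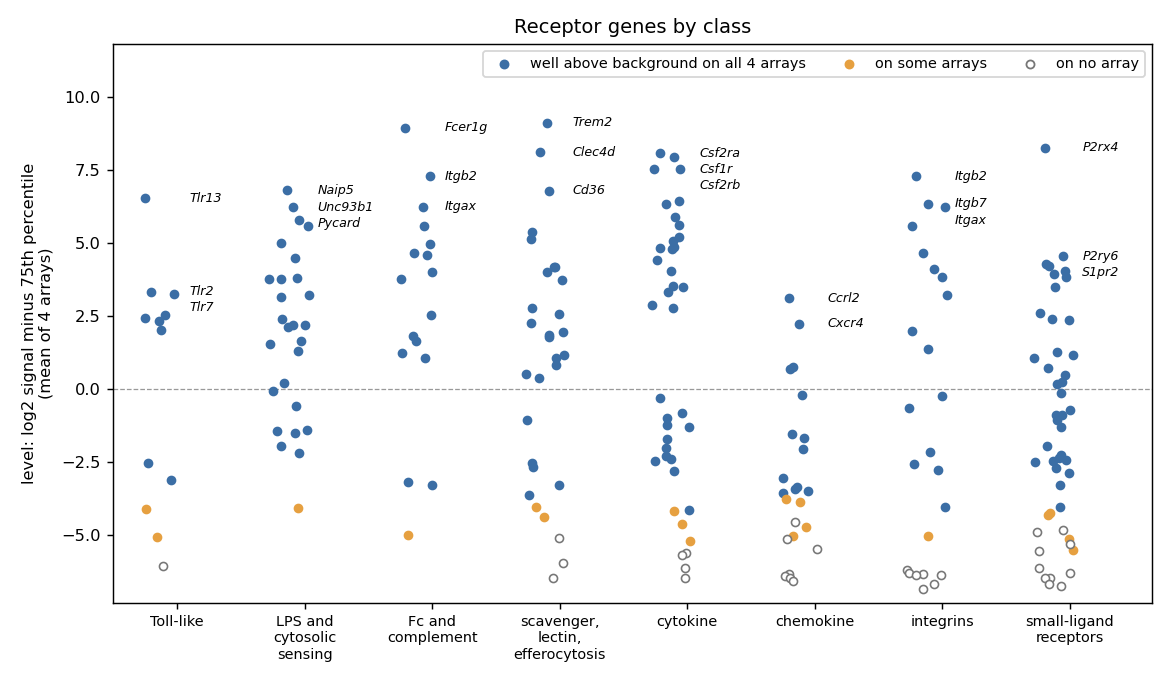
Mean level over the 4 control arrays (y axis, log2 signal minus the 75th percentile) of each receptor gene by class (x axis), with filled blue points for genes detected on all 4 arrays, orange for some and open for none. The highest genes of each class are named, and the chemokine receptor class reaches 3.11 where the other classes reach 6.52 or more.

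Transcription factors of the macrophage lineage were detected almost without exception, 32 of 34 on all 4 arrays with a median of 2.28. The exceptions were Myb and Gfi1, factors of progenitors and granulocytes, detected on none. Lyl1, a basic helix-loop-helix factor of blood cells, measured 6.13, 6.19, 6.28 and 6.31. Cebpb, a factor of inflammatory gene control, averaged 5.65, and Lmo2, a member of blood cell factor complexes, 5.59. Spi1, which encodes PU.1, measured 2.36, 2.21, 2.18 and 2.28 on its single probe. Its mean of 2.26 was close to those of Runx1 (2.06) and the Tfeb gene named above. Pparg, which drives lipid uptake genes, was at 5.49, Irf8 at 5.41 and Maf at 1.56.

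Factors that respond to signals were also mostly present at rest, 33 of 36 on all 4 arrays. Atf4, the effector of amino acid and unfolded protein stress, measured 8.45, 8.51, 8.27 and 8.33, with its other probe at 3.45. Atf3 averaged 6.62, Jun 6.35, the NF-kB subunit Rela 5.99 and the antioxidant factor Nfe2l2 5.87. Interferon-responsive factors were spread out, from Irf3 (5.59) and Irf5 (4.83) to Irf7 (0.15) and Irf4 (-1.21). Within the NF-kB family, Rela lay above Relb (3.30), Nfkb2 (2.33) and Nfkb1 (0.28) in signal, and Rel (-4.42) was detected on 2 arrays. The gap between Rela and Relb is below the median spread between probes of 1 gene. Egr2 (4.91) was detected on all arrays, Egr1 (-1.44) also, and Egr3 on none.

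Nuclear receptors divided into a detected set and an undetected set, with 27 of 49 on all 4 arrays and 15 on none, near the shares of all genes. The oxysterol receptors Nr1h2 (6.06, 6.06, 5.99 and 5.87) and Nr1h3 (4.79), the retinoid X receptor Rxrb (4.87), the oestrogen-related receptor Esrra (4.48) and the glucocorticoid receptor Nr3c1 (3.94) were the upper members. The other probe of Nr3c1 was at -1.61. Rxra, the retinoid X receptor usually named in macrophages, was at -2.04. Receptors known from liver, gonad and nervous system fell on both sides. Hnf4a, Nr5a2, Nr1i2 and Nr2e1 were detected on no array. Esr2 (1.5) and Nr5a1 (-1.01) were detected on all 4, as were Nr1h4 (-2.92) and Rorb (-3.87) near background. The vitamin D receptor Vdr was near background at -3.37.

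Of Klf and Gata factors, 13 of 23 were detected on all 4 arrays (56.5%, near the 60.4% of all genes). Klf6 measured 6.31, 6.45, 6.61 and 6.59, and Klf4 (1.73) and Klf2 (1.10) were moderate. Gata5 (1.99) was above Gata6 (-0.38) in signal, each by a single probe. That gap is below the median spread between probes of 1 gene (2.79) and gives no order. Gata1, Gata2 and Gata3, which direct red cell, mast cell and T-cell fates, were each detected on 1 array at levels between -5.79 and -4.49. Hox genes, which pattern the embryo, were largely undetected, with 9 of 39 on all 4 arrays and 23 on none. Over all genes the share on none was 32.0%. Hoxb4 was alone above 0, at 1.22, 1.17, 1.27 and 1.31, and no Hoxd gene was detected on all 4 arrays. Of 30 factors of other lineages, 4 were detected on all 4 arrays, among them Wt1, Nanog and Sox10, and 19 on none. Nanog stood at -0.17 by 1 probe and at -6.16 by the other.

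**Figure D4:**
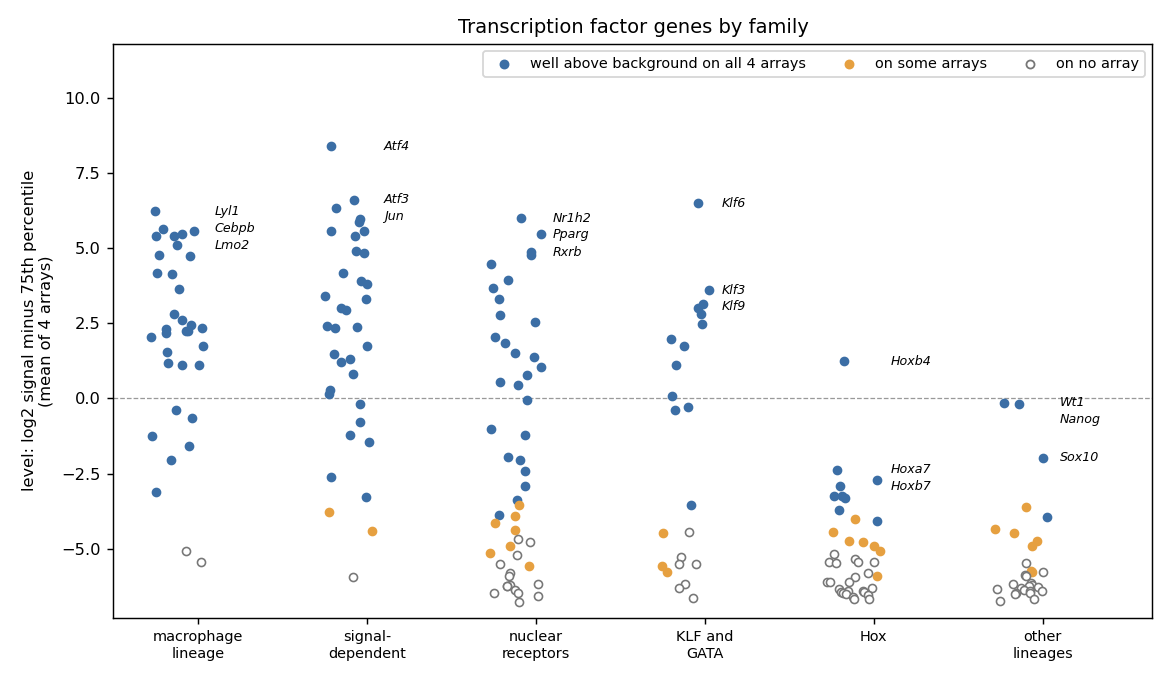
Mean level over the 4 control arrays (y axis, log2 signal minus the 75th percentile) of each transcription factor gene by family (x axis), with filled blue points for genes detected on all 4 arrays, orange for some and open for none. Macrophage lineage factors are blue in 32 of 34 cases, and 23 of the 39 Hox genes are open.

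Products of inflammation were detected about as often as all genes, at mean levels from 8.28 down to -6.59. Of 29 measured, 19 were detected on all 4 arrays (65.5%, beside 60.4% of all genes) and 10 on none (34.5%, beside 32.0%), with a median of -0.70. Nos2, the inducible nitric oxide synthase, measured -1.76, -1.26, -2.08 and -1.22, and Il1b was near background at -4.02. Il6, Il10, Il12a, Il23a, Csf2, Csf3, Ifnb1 and Ptgs2 were among those detected on none, with Il6 at -5.01, -4.63, -6.14 and -6.57. Tnf (1.77), Il18 (1.43) and the enzyme Acod1 (2.62), which makes itaconate, were detected without stimulus. Saa3 (8.28) and the prostaglandin synthase Ptges (5.90) were the highest of the list, although the other probe of Ptges was at -2.31.

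Chemokine ligands were less uniform. Ccl6 measured 7.72, 7.39, 7.02 and 6.90, Pf4 7.51, 7.05, 6.65 and 6.48, and Ccl9 6.68, 6.25, 5.72 and 5.89, and all were higher on replicates 1 and 2 than on replicates 3 and 4. Ccl3 (4.36), Ccl4 (3.63) and Ccl2 (2.93) were detected, and Cxcl9, Ccl17, Ccl22, Ccl11 and Ccl20 were detected on no array. Of 24 genes of complement and coagulation, 20 were detected on all 4 arrays. These included the opening component C1q (C1qa 3.83, C1qb 4.41 and C1qc 4.72), the central component C3 (4.30), properdin Cfp (5.98), and the clotting factor genes F10 (6.26) and F7 (4.80). The plasminogen activator receptor Plaur led at 6.42.

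Genes of the cell cycle were detected in 27 of 28 cases, at a median of -0.22. Pcna (7.05, 7.12, 6.75 and 6.73) and Mcm6 (mean 4.37), which serve DNA replication, were high. The inhibitors Cdkn1a and Cdkn1b stood at 3.33 and 2.95, although the other probe of Cdkn1a was at -3.96, and the mitotic genes Mki67, Cdk1 and Top2a at -0.17, -1.47 and -2.48. The reference genes Actb (9.70), Ppia (9.39) and Gapdh (9.35) lay near the top, but Tbp (1.03) and Ywhaz (1.82) did not.

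Among the 10 genes that differed most between the 4 arrays were genes of alternative activation and of connective tissue. Retnla, a secreted marker of the response to type 2 cytokines, had the largest SD of any gene detected on all arrays, with 5.74, 3.58, 1.13 and 2.02 on replicates 1 to 4. Ccl8 measured 5.54, 4.60, 1.65 and 2.33, and the chitinase-like lectin Chil3 8.18, 6.95, 6.18 and 4.52. Replicate 1 was the highest for each of these. Chil4, a near-identical neighbour of Chil3, followed it with 1.49, 0.14, -0.63 and -2.20, and their probes may share signal. The mast cell protease Cpa3 measured -0.83, -1.62, -2.47 and -3.54, also highest on replicate 1. The mean over the 5 detected mast cell, eosinophil and basophil markers was -1.54, -1.94, -2.27 and -2.54, with Ms4a2, Prg2, Mcpt8 and Epx detected on no array, and the part of such cells in the Retnla, Ccl8 and Chil3 levels was not tested. The mean over the 10 detected genes of alternative activation was 2.76, 2.18, 1.63 and 1.78. Other members of that list moved less, with the lectin Mgl2 at 5.43, 5.53, 5.37 and 5.61 and Arg1 at a mean of 0.15.

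A second pattern was that of the fibroblast and mesothelial markers. Mgp, a matrix protein, measured 1.28, 1.64, 2.33 and -0.54, and Lum, a proteoglycan of collagen fibrils, -0.67, -0.56, 0.12 and -2.68. Both were highest on replicate 3 and lowest on replicate 4, as was the mean of that list given above. The other genes among the 10 with the largest SD were Camk2b (2.90 between its highest and lowest array), Mical3 (2.63) and Gm5129 (2.50), all at means below -2. By contrast, the core macrophage list had means of 4.73, 4.77, 4.87 and 4.87, and the arrays hardly differed there.

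**Figure D5:**
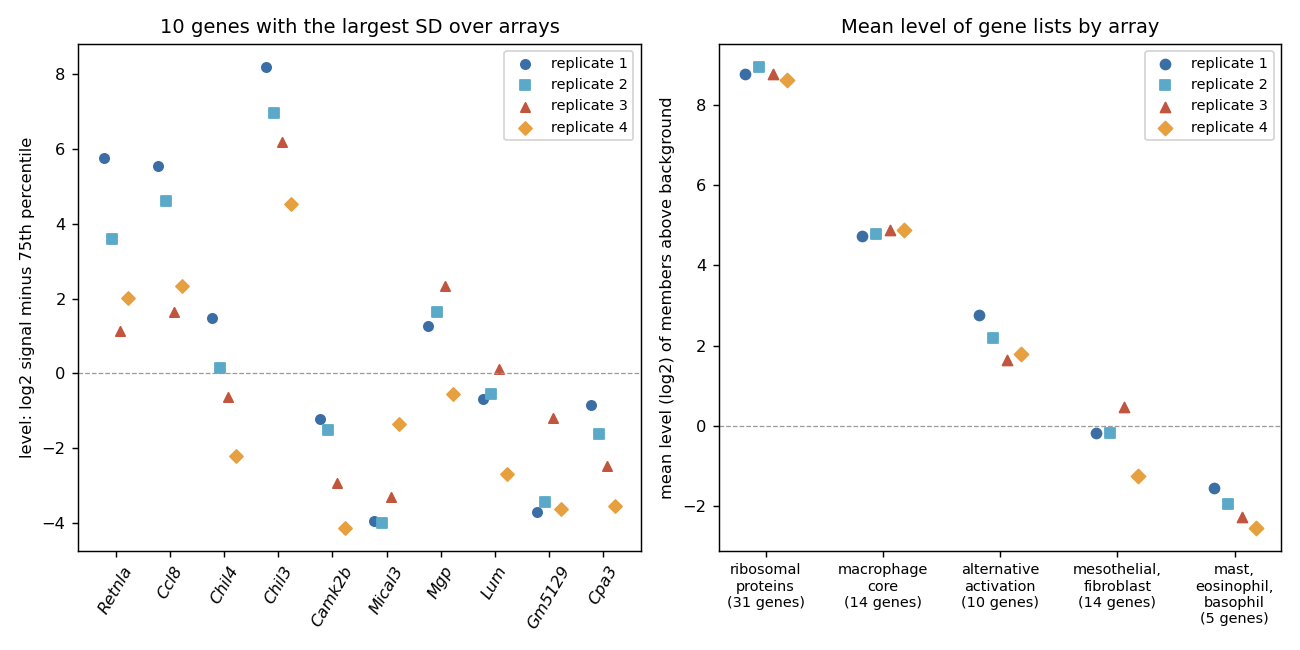
Left, level on each of the 4 control arrays (y axis, log2 signal minus the 75th percentile) of the 10 genes with the largest SD among those detected on all arrays (x axis), with 1 marker shape per replicate. Right, mean level of 5 gene lists on each array over their members detected on all arrays. Retnla spans 1.13 to 5.74, while the macrophage core list stays between 4.73 and 4.87.

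Sex was the labelled difference among these arrays and was compared as labelled, although Xist and the Y-linked genes went against the label of the arrays labelled male. Of 13341 genes detected on at least 2 arrays, none (0.0%) was called by limma at an adjusted p under 0.05, and 2188 (16.4%) had an unadjusted p under 0.05. The lowest adjusted p was 0.255, for the mast cell protease Mcpt4, whose difference, male minus female label, was -1.89 ± 0.08 (SE of the limma fit, n = 2 per label). Mcpt4 was detected on 3 arrays. It averaged -2.35 on those labelled female and -4.24, near background, on those labelled male. Aldh1l1, a folate enzyme, measured 2.28, 2.09, 4.07 and 4.15, higher on both arrays labelled male, with a limma adjusted p of 0.291. It was called with normexp background correction (adjusted p = 0.0423) and with a trended limma fit (adjusted p = 0.0277), each of which called 1 gene. With 2 arrays on each side and 2 residual degrees of freedom, a p that misses the threshold does not show that levels were alike. Which array carries which label is also in doubt. No order of the labels removes the mismatch, because Xist was detected on all 4 arrays and the Y-linked genes on none. In the deposited value table, replicate 1 matched a column labelled male and replicate 4 a column labelled female. With the labels of the matching columns, 341 genes (2.56%) had an unadjusted limma p under 0.05.

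Detected and undetected genes also differed in the base composition of their promoters. Over the 250 bases upstream of RefSeq gene starts, the median ratio of observed to expected CpG was 0.695 for windows of genes detected on all 4 arrays, 0.267 for genes detected on none and 0.104 for the sensory receptors, beside 0.373 for all windows. The letters TATAAA, searched on both strands, were in 7.2% of windows of genes detected on all arrays, 18.4% of those detected on none and 37.4% of those of sensory receptors, beside 12.4% of all windows. Ribosomal protein windows had a median CpG ratio of 0.918 and the 9 matched macrophage core windows 0.215. Windows overlap for genes with neighbouring starts and are not independent.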

How the data were processed

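Each array has a deposited scanner table of spot intensity, and the submitters' processing notes name Agilent Feature Extraction 10.7.3.1. Its processed signal has background removed but no scaling across arrays, according to the file headers. Depth does not exist for arrays, and their number limits the precision. The authors' deposited value table holds log2 values and was used only to match its columns to the scanner files. Scale and centring of that table were not used here.

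Of 59305 gene spots per array, 105 to 128 outlier spots were left out, spots of a probe were averaged, and log2 signals had the 75th percentile over probes subtracted. Of 55681 probes, 54 lacked a value on some array. Unversioned accessions matched to RefSeq (GRCm38.p6, names only) named 27483 probes of 20871 genes and left 28144 unnamed. The probe with the highest mean stood for a gene, and a probe was detected when at least 1 of every 2 of its spots carried the flag for well above background. Sexes were compared with limma 3.58.1 in R 4.3.3 (lmFit, eBayes, Benjamini-Hochberg, two-sided), tested on simulated data. Nothing in the labels ties samples to separate animals, so each p-value rests on the spread among these 4 arrays, which may be technical.

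The members and the 34 gene lists (764 genes, 17 without a matched probe) were chosen with earlier results of these data known. Named were the 25 highest genes, list members, 10 genes of largest SD, 12 preset genes and the genes with the largest sex difference. Olfr544, Gata5 and members singled out for a low level or for disagreeing probes were chosen after their values were seen. Some genes of these lists are not reported here. Alternatives changed the flag, outliers, probe choice, scaling, background correction and arrays. Normexp used median spot signals, because the files used here have no mean signal column.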

Additional observations from a re-analysis of the deposited data

Results flagged for a closer look

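Among the genes named by rule and reported here, 126 were detected on all 4 arrays and were checked for an array far from the other 3, by the gap to the nearest array over the whole range (Dixon's ratio, at its 95% critical value). Chance gives about 1 in 20, and 4 exceeded the limit. For Rpl10 the ratio was 0.909, with replicate 4 at 9.55 below 9.83, 9.84 and 9.85. For Unc93b1 it was 0.848, with replicate 4 at 6.29 above 6.19, 6.20 and 6.21. For Klf3 it was 0.832, with replicate 4 at 3.93 above 3.45, 3.49 and 3.53. For Gm5129 it was 0.896, with replicate 3 at -1.18 above -3.69, -3.61 and -3.43. Except for Gm5129, the array that stood apart differed by less than 0.5 log2 units.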

How the results depend on the processing

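The count of 12610 genes detected on all 4 arrays ranged from 11722, with a limit at the 95th percentile of sensory receptor probes, to 14654 with the weaker detection flag of the same software, and was 12652 to 12737 when 1 array was left out. The count of 6680 detected on none fell to 2901 with that weaker flag, which more probes carry, was 8018 with the sensory receptor limit and 6851 to 6927 with 1 array left out. With only the arrays labelled female, chosen after seeing the data, the counts were 12948 and 7137. Of the 25 highest genes, 25 stayed with quantile scaling, 20 with normexp, 18 with the mean of all probes and 24 to 25 with 1 array left out. All 25 also stayed with the percentile over detected probes. That scaling only shifts each array by a constant, so it could not change the order of mean levels. The mean of all probes could not change the levels of the 15 genes with a single probe. The percentile over detected probes shifted the median gene by -3.10 and normexp by 0.34, so levels are relative to the scaling. Of 129 named levels, 64 moved by more than 1 SD with normexp, 32 with the lowest probe and 0 with quantile scaling. The comparison of sexes called 0 genes in every setting tried except normexp (1), the trended fit (1) and the sex labels of the matching value table columns (1, Slc12a3, limma adjusted p = 0.0304), and 0 whichever array was left out. In the deposited table, scanner replicate 1 matched the column of replicate 3, scanner replicate 3 that of 4 and scanner replicate 4 that of 1. No paired analysis was possible because a single group was used. Signal over background limits what a gene near a level of -3 or below can show.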

Other observations

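Detection ran along gene families that no list held. Of families defined by the letters that open a symbol, all 28 mitochondrial ribosomal genes starting Mrps, all 26 starting Polr (RNA polymerase subunits) and all 34 starting Vps (vesicle sorting) were detected on all 4 arrays, and 59 of 69 Rab genes, which direct membrane traffic. At the other end were keratins, with 17 of 53 Krt genes detected, claudins of tight junctions, with 7 of 30 Cldn genes, taste receptors, with 3 of 38 genes starting Tas, and beta-defensins, with 2 of 43 Defb genes. Solute carriers (Slc, 227 of 373) stood near the share of all genes. Of long noncoding RNA genes, 274 of 962 (28.5%) were detected, beside 62.1% of 19695 protein-coding genes.

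Probes without a gene name carried signal too. Of 16176 probes listed by chromosome position, 4505 (27.8%) were detected on all 4 arrays, and of 11968 with another accession or tag, 4850 (40.5%), with highest levels of 9.35 and 10.09. They entered no gene count.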
